A study of Mus musculus with 12 samples.

Results

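The genes described here are the transcription factor NRF2 (*Nfe2l2*), its inhibitor *Keap1* and 8 genes of antioxidant defence, *Gclc*, *Gclm*, *Txnrd1*, *Srxn1*, *Nqo1*, *Hmox1*, *Cat* and *Sod2*. They were chosen by symbol from a table of 20069 genes, and all 10 were found there. All 10 also passed the expression minimum of 8 reads per base pair (rpbp) in at least 1 sample, as did 10198 genes in all. Liver RNA from C57BL/6 mice aged 3 to 6 months was sequenced at 6 times of day, ZT2, 6, 10, 14, 18 and 22, in 2 series, which gave 12 samples and n = 2 at each time point. ZT counts hours from lights on. Before sampling, the mice had been kept in cycles of 12 hr of light and 12 hr of darkness for at least 2 weeks, and the labels name no genetic change and no drug in any group. The labels do not say whether a sample is 1 mouse or a pool, so the p-values measure the spread between these samples. A level in rpbp is the mean read coverage over the exons of a gene, scaled to 40000000 sequences, so it is already per length and can be compared between genes.

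NRF2 is a transcription factor that is held at a low level by KEAP1, which directs it to degradation. Electrophiles and oxidants modify KEAP1, after which NRF2 accumulates, enters the nucleus with a small MAF protein and binds antioxidant response elements in its target genes. Much of this control acts on the protein, which was not measured here. Its known targets include the enzymes of glutathione synthesis, thioredoxin reductase, sulfiredoxin, the quinone reductase NQO1 and heme oxygenase. Catalase and the mitochondrial superoxide dismutase remove hydrogen peroxide and superoxide, and the liver expresses catalase at a very high level.

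The 10 mRNAs did not share 1 daily profile. *Srxn1*, *Sod2* and *Nqo1* met the criteria for rhythmic mRNA, with highs between ZT6 and ZT10, and 19.0% of the 10198 expressed genes met them too. The call of *Nqo1* was lost in 16 of 25 alternatives, that of *Sod2* in 5 and that of *Srxn1* in 2. *Nfe2l2* and *Nqo1* were called lower at ZT2 than at the other 5 time points, as were 9.79% of all expressed genes. Both of these calls were lost with no expression minimum. Limma's F-test over the 6 time points called 1 of the 10, *Gclc*, against 17.6% of all expressed genes, and that call lay close to the limit and was lost in 14 of 20 alternatives. The median coefficient of variation over the 12 samples was 14.7% for the 10 genes and 14.9% for all expressed genes. As a group they thus varied about as much over the 12 samples as other liver mRNAs. This includes the spread between the 2 samples of a time point. The median of that pooled SD was 9.60% of the mean for the 10 genes and 10.8% for all expressed genes.

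**Figure D1:**
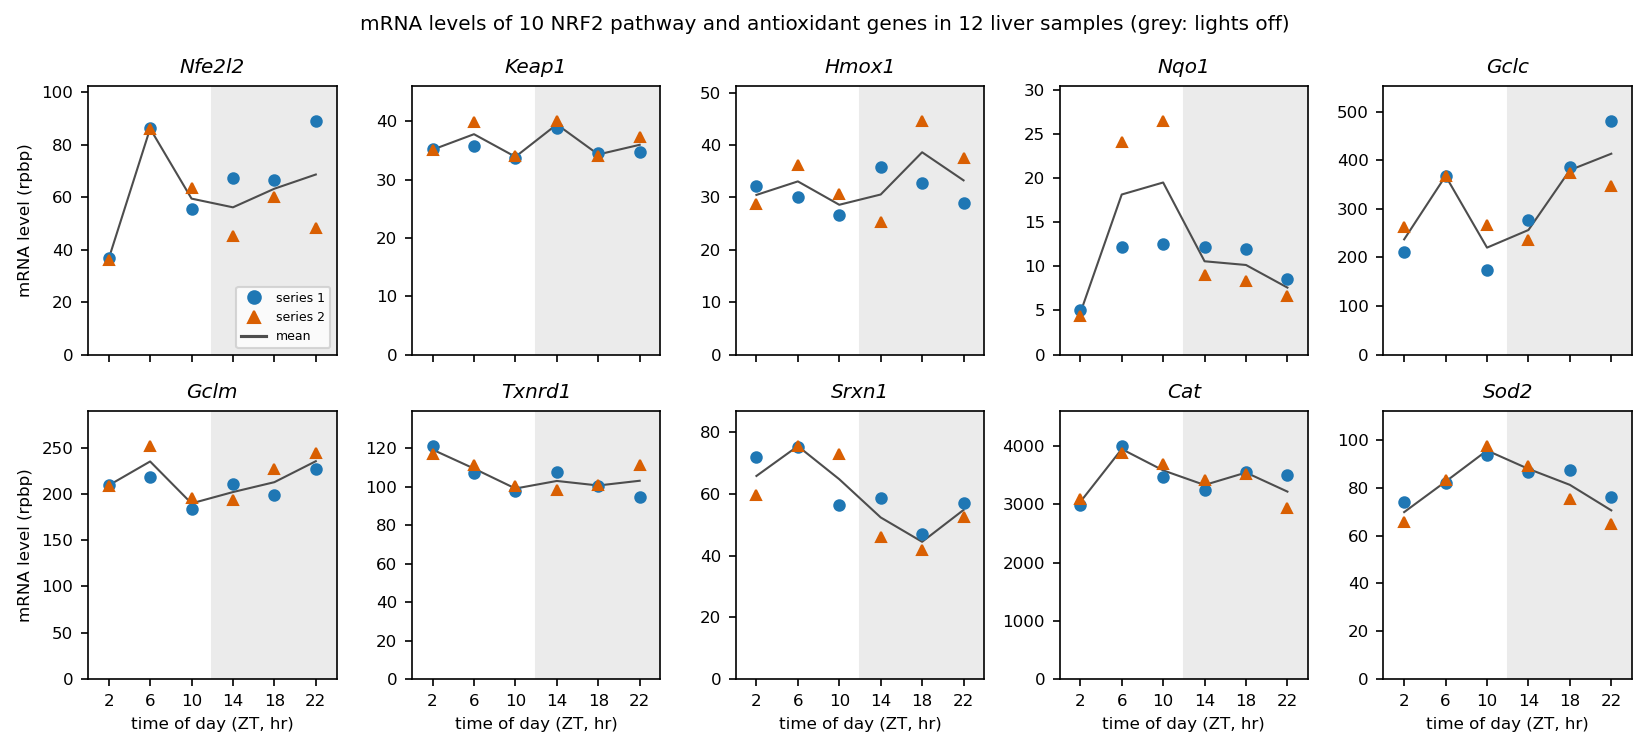
mRNA level in rpbp (y axis, from 0) against time of day in hr after lights on (x axis) for each of the 10 genes. Circles are series 1, triangles are series 2, lines join the time-point means of 2 samples, and grey marks darkness. *Nfe2l2*, *Nqo1* and *Cat* have their lowest means at ZT2, *Srxn1* has its low at ZT18, and *Keap1* stays between 33.72 and 40.08 rpbp.

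The promoters show where an antioxidant response element could be read from the sequence alone, and they are given as background to the levels. In RefSeq promoters of build GRCm38.p6 (250 bases before to 50 after a start), 8 of the 10 genes had an entry, and the core TGACNNNGC was searched on both strands. It was present in 4 of the 10 promoters listed for these 8 genes, *Txnrd1* having 3, and in 12.4% of the 32851 promoters of the table. Each window is shown 5′ to 3′ on the gene's strand with the matching bases in capitals, because these are the members whose promoter holds the letters that NRF2 is known to bind.
Nfe2l2: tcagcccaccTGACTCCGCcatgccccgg
Gclm: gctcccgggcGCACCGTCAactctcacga
Txnrd1: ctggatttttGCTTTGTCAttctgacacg
Srxn1: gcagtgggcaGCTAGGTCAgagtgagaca
The *Nfe2l2* window lies at chr2:75704885-75704913 on the minus strand, with the match beginning 240 bases before the start, and it reads the core on the gene's own strand. The other windows read it on the opposite strand. The *Gclm* window is at chr3:122245413-122245441 (plus strand), 134 bases before the start, and the *Txnrd1* window, in the second of 3 listed promoters, is at chr10:82859104-82859132 (plus strand), 92 bases before it. In *Srxn1* the match lies 28 bases after the start, at chr2:152105542-152105570 (plus strand). No match was in the promoters listed for *Keap1*, *Nqo1*, *Cat* and *Sod2*, and bases farther from the start were not searched. *Hmox1* and *Gclc* had no entry, so nothing can be said of them. CACGTG, the core E-box of the circadian activator CLOCK:BMAL1, was in 7.15% of the promoters in the table and in none of those of the 8 genes. A match of letters is a description of the sequence, and binding was not measured.

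*Nfe2l2* (mm9, chromosome 2, 75513570 to 75542698, minus strand), which encodes NRF2 itself, had its lowest time-point mean at ZT2 and its highest at ZT6. In series 1 its mRNA was at 37.00 rpbp at ZT2, 86.40 at ZT6, 55.48 at ZT10, 67.20 at ZT14, 66.40 at ZT18 and 89.08 at ZT22. The series 2 levels were 36.00, 86.00, 63.48, 45.12, 60.12 and 48.28 rpbp at the same times. Both ZT2 samples lay below every other sample, and the 2 series were almost equal at ZT2 and ZT6 but far apart at ZT22. From ZT2 (36.5 ± 0.707 rpbp, SD, n = 2) to ZT6 (86.2 ± 0.283 rpbp) the level was 2.36-fold higher. ZT2 stood 0.82 below the mean of the other 5 time points on the log2(rpbp + 1) scale (limma, log2 difference -0.82, SE 0.206, adjusted p = 0.0265). Among all expressed genes, 9.79% were called lower at ZT2. The call was lost without either ZT2 sample, where the difference was -0.84 or -0.80, and over 19 alternatives the adjusted p was between 0.00477 and 0.157 (limma).

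A 24 hr cosine took almost none of the variance of *Nfe2l2* (F24 = 0.0273, permutation p = 0.878). F24 is the share of the variance over the 12 values that a 24 hr cosine takes, and F12 is the same share for a 12 hr cosine. The 12 hr share of *Nfe2l2* was 0.437 (permutation p = 0.0775, adjusted p = 0.475), just under the limit of 0.45. Without series 1 at ZT22, which was the highest of the 12 samples, F12 was 0.563, and without series 1 at ZT14 it was 0.587, and both passed the limits for a 12 hr call. Across all 6 time points the limma F-test did not pass for *Nfe2l2* (adjusted p = 0.0918), but it did without either ZT22 sample (adjusted p = 0.0279 without series 1 and 0.0217 without series 2), the pair that differed most.

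*Keap1* (chromosome 9, 21034174 to 21043776, minus strand), the adaptor that brings NRF2 to its ubiquitin ligase, was nearly flat. Its lowest sample was at 33.72 rpbp and its highest at 40.08 rpbp, a span of 1.19-fold. The ZT14 pair (39.5 ± 0.820 rpbp) and the ZT10 pair (33.94 ± 0.311 rpbp) did not overlap, but no time point was called and the F-test over the 6 time points gave an adjusted p of 0.364 (limma). The pooled SD between the 2 samples of a time point was 4.01% of its mean, the lowest value of the 10 genes. Its exons share 510 bases (11.4% of the exon bases) with the non-coding RNA *Gm16754* on the opposite strand, and reads were counted without strand, so the reads of the pair cannot be told apart there.

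Glutathione synthesis starts with glutamate-cysteine ligase, whose catalytic subunit is *Gclc* and whose modifier subunit is *Gclm*. *Gclc* (chromosome 9, 77602342 to 77642292, plus strand) was at 212.00 rpbp at ZT2, 368.56 at ZT6, 174.40 at ZT10, 276.36 at ZT14, 386.48 at ZT18 and 480.96 at ZT22 in series 1. In series 2 the same times gave 262.52, 367.00, 266.00, 236.68, 373.28 and 346.32 rpbp. All 6 samples of ZT6, ZT18 and ZT22 lay above all 6 samples of ZT2, ZT10 and ZT14, so the gene had 1 high in the middle of the light phase and another late in the night. *Gclc* was the 1 gene of the 10 called by the limma F-test over the 6 time points (adjusted p = 0.0476), where 17.6% of all expressed genes were called. Before adjustment 5 of the 10 genes and 37.2% of all expressed genes had a p below 0.05. The call lies close to the limit: it was lost in 14 of 20 alternatives, with adjusted p between 0.0241 and 0.107 (limma) over all of them. Its mean was 413.64 ± 95.2 rpbp at ZT22 and 220.2 ± 64.8 rpbp at ZT10, 1.88-fold apart. F24 was 0.286 and F12 was 0.377 (permutation p = 0.220 and 0.110), so neither period took most of the variance. *Gclc* passed the 12 hr limits without series 1 at ZT10 (F12 = 0.595) or at ZT22 (F12 = 0.681), and the 24 hr limits without both ZT2 samples (F24 = 0.709, permutation p = 0.0122).

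*Gclm* (chromosome 3, 121948475 to 121972902, plus strand) spanned 184.16 to 252.16 rpbp over the 12 samples. The ZT22 mean was 235.28 ± 11.8 rpbp and the ZT10 mean 189.72 ± 7.86 rpbp, and the ZT6 mean of 235 ± 24.3 rpbp equalled that of ZT22 within the spread. The lowest mean was thus at ZT10 in both subunits, and their ZT6 and ZT22 means lay above their ZT10 means, by less in *Gclm* than in *Gclc*. For *Gclm* neither the F-test (limma, adjusted p = 0.245) nor the 24 hr cosine (F24 = 0.30, permutation p = 0.206) passed. The exons of *Gclm* share 296 bases (5.76%) with the opposite-strand RNA *Gm17494*.

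In the thioredoxin branch, *Txnrd1* encodes the cytosolic thioredoxin reductase and *Srxn1* encodes sulfiredoxin, which reactivates overoxidised peroxiredoxins. *Srxn1* (chromosome 2, 151931252 to 151937112, plus strand) was the 1 gene of the 10 called strongly rhythmic, which asks for F24 above 0.6 and a wider range, and 7.89% of all expressed genes were. Its series 1 levels were 72.12 rpbp at ZT2, 75.40 at ZT6, 56.64 at ZT10, 58.80 at ZT14, 47.16 at ZT18 and 57.16 at ZT22. Series 2 gave 59.68, 75.76, 73.04, 46.08, 41.92 and 52.60 rpbp. The ZT6 pair lay above all other samples, and all 6 night samples lay below the ZT2 and ZT6 samples. The mean at ZT6 was 75.58 ± 0.255 rpbp and at ZT18 44.54 ± 3.71 rpbp, 1.70-fold apart. The 24 hr cosine took 0.784 of the variance with a phase of 5.73 hr (permutation p = 0.00186, adjusted p = 0.0398), and the 12 hr cosine took 0.00112. The rhythmic call of *Srxn1* was lost only in each series alone, where F24 was 0.798 in series 1 and 0.897 in series 2 (exact permutation p = 0.167 and 0.0833, n = 6 each).

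*Txnrd1* (chromosome 10, 82296696 to 82360469, plus strand) was highest at ZT2, where the 2 samples were at 121.44 and 117.24 rpbp and lay above all 10 others, which were between 94.88 and 111.56 rpbp. The ZT2 mean of 119.34 ± 2.97 rpbp was 1.20-fold above the ZT10 mean of 99.1 ± 2.06 rpbp. This difference at ZT2 did not pass (limma, log2 difference 0.21, SE 0.0796, adjusted p = 0.0961). Its F24 of 0.462 exceeded 0.45 with a phase of 2.69 hr, but the permutation p was 0.0689 and the highest over lowest value 1.28. A separate entry of the table, written TXNRD1 in capitals, had a mean of 86.2 ± 14.4 rpbp (SD, n = 12) and an F24 of 0.124 (permutation p = 0.533), and it was not merged with *Txnrd1*. The ZT2 samples of TXNRD1, at 97.76 and 105.48 rpbp, did not lie above all others. Its highest sample was series 1 at ZT18 (106.2 rpbp).

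*Nqo1* (chromosome 8, 109912125 to 109927106, minus strand), a quinone reductase widely used as a readout of NRF2 activity, was the lowest of the 10 in level and the widest in range. Series 1 was at 5.04 rpbp at ZT2, 12.12 at ZT6, 12.52 at ZT10, 12.12 at ZT14, 11.92 at ZT18 and 8.56 at ZT22. Series 2 was at 4.36, 24.12, 26.44, 9.0, 8.36 and 6.60 rpbp. The ZT2 pair lay below all other samples, and the ZT6 and ZT10 samples of series 2 lay far above those of series 1, which hardly differed from ZT6 to ZT18. The ZT10 mean of 19.48 ± 9.84 rpbp was 4.14-fold above the ZT2 mean of 4.70 ± 0.481 rpbp. Both ZT2 samples and the series 2 sample of ZT22 lay below the expression minimum of 8 rpbp. The fold and the ZT2 difference of *Nqo1* thus rest on low values. *Nqo1* was called lower at ZT2 (limma, log2 difference -1.20 on the log2(rpbp + 1) scale, SE 0.295, adjusted p = 0.0245), and as for *Nfe2l2* the call was lost without either ZT2 sample, with differences of -1.28 and -1.11. The rhythmic call of *Nqo1* rests on values at the limits (F24 = 0.454, permutation p = 0.0498, adjusted p = 0.188), and it was lost in 16 of 25 alternatives, among them leaving out any of 9 single samples.

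*Hmox1* (chromosome 8, 77617490 to 77624495, plus strand), the inducible heme oxygenase, was between 25.32 and 44.56 rpbp, with a median of 31.4 rpbp. Both extremes were series 2 samples, ZT14 and ZT18. As a description, the 2 series did not follow each other over the 6 times (r = -0.224), the only negative value among the 10 genes, and the F-test gave an adjusted p of 0.612 (limma). At this spread no time-of-day difference of *Hmox1* was detectable (F24 = 0.164, permutation p = 0.457).

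*Cat* (chromosome 2, 103294006 to 103325317, minus strand), which encodes catalase, was by far the most abundant of the 10. In series 1 it was at 2996.36 rpbp at ZT2, 4008.48 at ZT6, 3467.84 at ZT10, 3241.64 at ZT14, 3562.60 at ZT18 and 3503.04 at ZT22. The series 2 values were 3085.48, 3888.40, 3697.60, 3421.88, 3528.04 and 2933.44 rpbp. The ZT6 pair lay above all other samples and the ZT2 pair below all but the series 2 sample of ZT22. The mean at ZT6 (3948.44 ± 84.9 rpbp) was 1.30-fold that at ZT2 (3040.92 ± 63.0 rpbp), and neither time point passed against the other 5 (limma, adjusted p = 0.109 and 0.104). A 12 hr cosine took 0.518 of the variance of *Cat* (permutation p = 0.0443, adjusted p = 0.425), but its highest over lowest value of 1.37 kept it under the amplitude limit of 1.5. None of the 10 genes was called for a 12 hr component, against 7.58% of all expressed genes, with 1 of the 10 (*Cat*) and 11.5% of all at an unadjusted permutation p below 0.05. With the p of limma's 12 hr cosine, 1 of the 10 (*Nfe2l2*) and 12.5% of all expressed genes were below 0.05 unadjusted, and none of the 10 and 0.0784% of all after adjustment.

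*Sod2* (chromosome 17, 13200705 to 13210985, plus strand), the manganese superoxide dismutase of mitochondria, followed the 24 hr cosine most closely. Series 1 gave 73.96 rpbp at ZT2, 82.12 at ZT6, 93.60 at ZT10, 86.80 at ZT14, 87.40 at ZT18 and 76.36 at ZT22, and series 2 gave 65.80, 83.16, 97.72, 89.12, 75.16 and 64.84 rpbp. In both series the high was at ZT10 and the lowest values were at ZT2 and ZT22, and the 2 series agreed best among the 10 genes (r = 0.888 over 6 times). The ZT10 mean was 95.66 ± 2.91 rpbp and the ZT2 mean 69.88 ± 5.77 rpbp, 1.37-fold apart. F24 was 0.801 with a phase of 11.5 hr (permutation p = 0.0010, adjusted p = 0.0303). The rhythm is small in size: the highest over lowest value was 1.51, just over the limit, and *Sod2* was no longer called with the amplitude taken from time-point means, with scaling to the summed signal or without series 2 at ZT10, at ZT22 or altogether.

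With the adjusted permutation p, 2 of the 10 genes (*Srxn1* and *Sod2*) stayed rhythmic and 5.02% of all expressed genes did. *Srxn1* peaked in the light phase at 5.73 hr and *Sod2* near its end at 11.5 hr, and the phase of *Nqo1*, 9.63 hr, fell between them. The median F24 was 0.293 for the 10 genes and 0.310 for all expressed genes, and the median F12 was 0.208 and 0.202. The medians of the highest over lowest value were both 1.63.

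**Figure D2:**
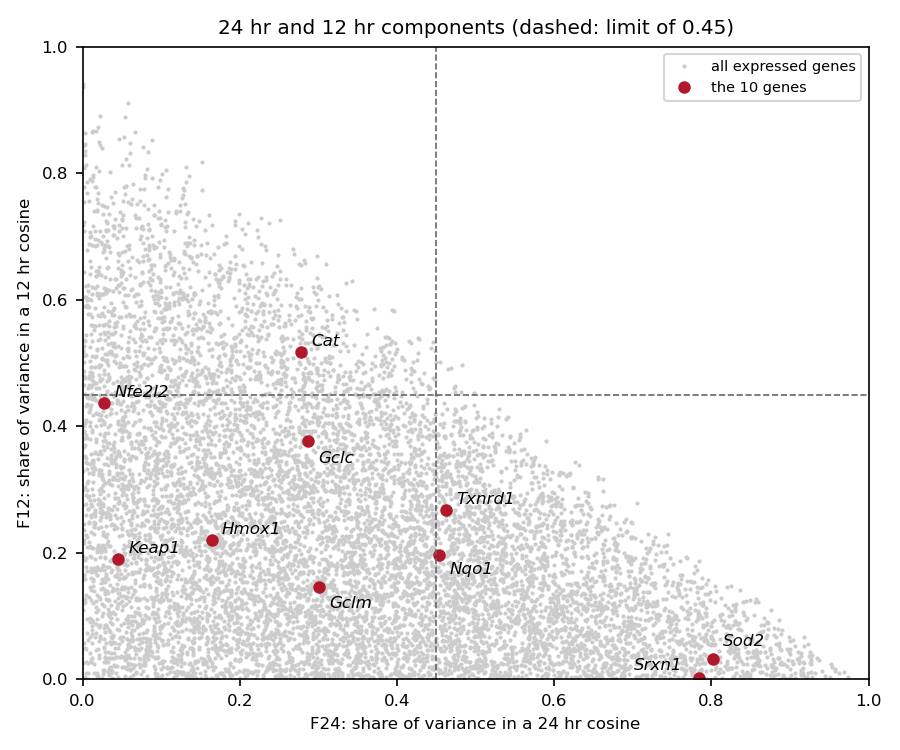
F24 (x axis) against F12 (y axis), both as shares of variance without unit, for all 10198 expressed genes (grey) and the 10 genes (red, named), with the limit of 0.45 dashed. *Sod2* and *Srxn1* lie at F24 near 0.8 with almost no F12, *Cat* and *Nfe2l2* lie on the 12 hr side, and *Keap1* and *Hmox1* are low in both.

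Each time point was then compared with the other 5. The ZT6 estimate was above 0 in all 10 genes, and the ZT2 estimate was below 0 in 8 of 10, with *Txnrd1* and *Srxn1* as the exceptions. Over all expressed genes 53.6% had a ZT6 estimate above 0 and 43.4% a ZT2 estimate below 0. No gene of the 10 was called at ZT6, where 6.91% of all expressed genes were called in either direction. The largest ZT6 estimates were those of *Nqo1* (0.81, adjusted p = 0.133), *Nfe2l2* (0.64, adjusted p = 0.0995) and *Srxn1* (0.43, adjusted p = 0.0776, limma). Those of *Sod2* (0.040, SE 0.0909), *Hmox1* (0.045, SE 0.166) and *Txnrd1* (0.063, SE 0.0796) were smaller than their SE. *Gclc* was 0.58 below the other time points at ZT10 (log2 difference -0.58, adjusted p = 0.0911) and 0.53 above them at ZT22. Of 60 pairs of gene and time point, the 2 calls at ZT2 were the only ones, and the background of calls in either direction was 4.92% at ZT10, 2.60% at ZT14, 0.549% at ZT18 and 1.21% at ZT22. The lowest time-point mean was at ZT2 in 4 genes and at ZT10 in 5.

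**Figure D3:**
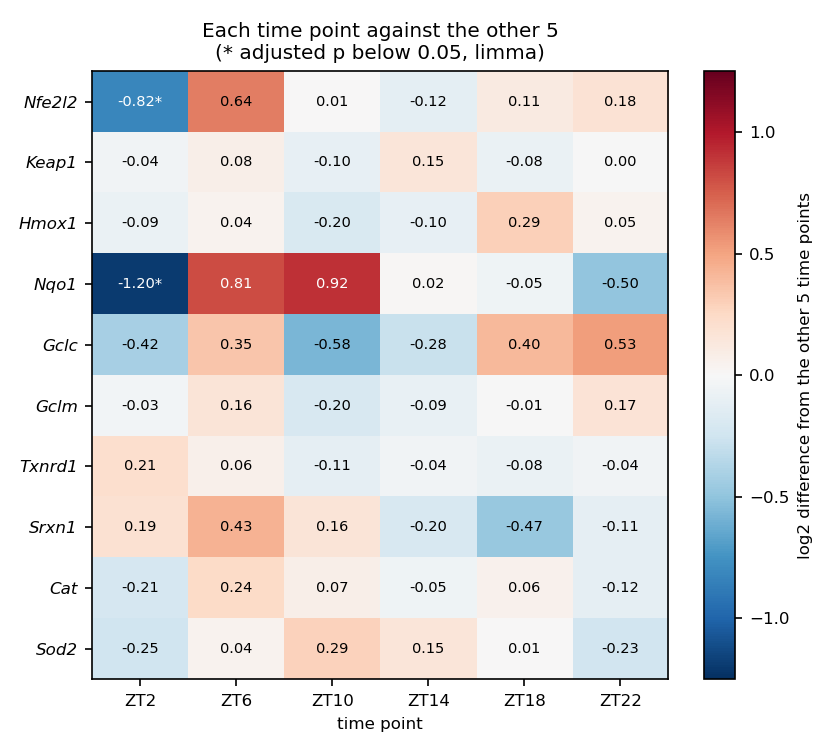
Log2 difference of each time point (columns) from the mean of the other 5, on the log2(rpbp + 1) scale, for the 10 genes; blue is lower and red is higher, and an asterisk marks an adjusted p below 0.05 (limma). The 2 asterisks are at ZT2, for *Nfe2l2* (-0.82) and *Nqo1* (-1.20), and the ZT6 column is above 0 for every gene.

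The ZT2 samples also stood apart in other ways. Summed hepatocyte markers (*Alb*, *Apoa1*, *Ttr*, *Serpina1a*, *Tat* and *Cps1*) were at 83223 and 86185 rpbp at ZT2 and between 123342 and 157851 rpbp in the other 10 samples, and 3 of 6 were called lower (*Alb*, *Ttr* and *Tat*) and 1 higher (*Apoa1*) at ZT2. The gap in the sum was mostly that of its most abundant member, *Alb*, which was at 50445 and 53126 rpbp at ZT2 and between 93174 and 122523 rpbp elsewhere, while the other 5 markers summed to 32778 and 33059 rpbp at ZT2, within their range of 25763 to 35328 rpbp elsewhere, with members that went both ways. The summed Kupffer cell markers were at 717.44 and 716.76 rpbp at ZT2 and between 372.92 and 567.96 rpbp elsewhere, and 4 of the 7 above the minimum were called higher, where 9.62% of all expressed genes were. None of the Kupffer markers was at 0, the lowest being *Marco* with at most 5.96 rpbp. Of the other marker lists, the cholangiocyte marker *Sox9*, the 1 of that list above the minimum, was called higher at ZT2 (log2 difference 0.81, SE 0.219, adjusted p = 0.0329, limma). The stellate cell marker *Reln*, 1 of 3 above the minimum, was called lower (-0.42, SE 0.116, adjusted p = 0.0357). The part of these markers in the ZT2 values of *Nfe2l2* and *Nqo1* was not tested, and in RNA from whole liver fewer cells of a type and less RNA per cell cannot be told apart. Lymphocyte markers were low in all samples, with none above the minimum and a sum of at most 11.68 rpbp. The 10 most abundant genes of the liver took 22.4 and 23.4% of the signal at ZT2 and 24.8 to 28.7% elsewhere.

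In level, the 10 genes covered a wide range. *Cat* averaged 3445 ± 335 rpbp (SD, n = 12), 11-fold above *Gclc* at 312.5 ± 88.3 rpbp, and was above 99.5% of expressed genes. *Gclm* followed at 214 ± 20.6 rpbp, with samples overlapping those of *Gclc*. *Txnrd1* (105.8 ± 8.36 rpbp) lay below every *Gclm* sample, and *Sod2* (81.3 ± 10.4 rpbp), *Nfe2l2* (61.7 ± 18.5 rpbp) and *Srxn1* (59.7 ± 11.9 rpbp) each overlapped the gene before them. *Keap1* (36.1 ± 2.31 rpbp) was below every *Srxn1* sample and overlapped *Hmox1* (32.4 ± 5.39 rpbp), and *Nqo1* (11.8 ± 6.91 rpbp) was last, above 25.4% of expressed genes. At ZT2 *Nfe2l2* (36.5 ± 0.707 rpbp) was near the level of *Keap1* (35.16 ± 0.0566 rpbp), and at the other 5 time points every *Nfe2l2* sample lay above every *Keap1* sample.

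The relation of *Nfe2l2* with each of the 9 other mRNAs was computed across the 12 samples on the log2(rpbp + 1) scale, with p-values adjusted over the 9 relations. These samples share 6 times of day, so a common time course enters every coefficient. *Cat* followed *Nfe2l2* most closely (r = 0.789, permutation p = 0.00264, adjusted p = 0.0238; rho = 0.706, permutation p = 0.0124, adjusted p = 0.0558). Leaving out the 2 samples farthest from the median of *Nfe2l2*, which were those of ZT2, gave r = 0.665 (permutation p = 0.0333, adjusted p = 0.193), so the call rests on them. It was also lost on leaving out any single ZT2 or ZT6 sample (r of *Cat* from 0.735 to 0.759, permutation p adjusted over the 9 relations from 0.0585 to 0.089). Within series 1 r was 0.790 and within series 2 it was 0.824 (exact permutation p = 0.0722 and 0.0458, n = 6 each).

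For *Gclc* r was 0.655 (permutation p = 0.0216, adjusted p = 0.0648) and rho 0.720 (permutation p = 0.0106, adjusted p = 0.0558), and r was 0.602 without the ZT2 samples (permutation p = 0.0645). It was 0.784 in series 1 and 0.590 in series 2. At ZT22, where *Nfe2l2* was at 89.08 and 48.28 rpbp, *Gclc* was at 480.96 and 346.32 rpbp, and as a description the differences between the series in *Nfe2l2* and *Gclc* over the 6 times had r = 0.901. For *Nqo1* r was 0.673 (permutation p = 0.0162, adjusted p = 0.0648) and rho 0.574 (permutation p = 0.0546, adjusted p = 0.164), and without the ZT2 samples r was 0.389 (permutation p = 0.268), so the pooled *Nqo1* relation rests on those samples. Within series 1 r was 0.618 and within series 2 it was 0.858 (exact permutation p = 0.228 and 0.0236, n = 6 each, ZT2 included), and as a description the differences between the series had r = 0.666. The other 6 relations had permutation p-values of 0.115 or more, with *Keap1* at r = 0.056 and *Txnrd1* as the 1 negative value (r = -0.479, and 0.110 without the ZT2 samples).

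**Figure D4:**
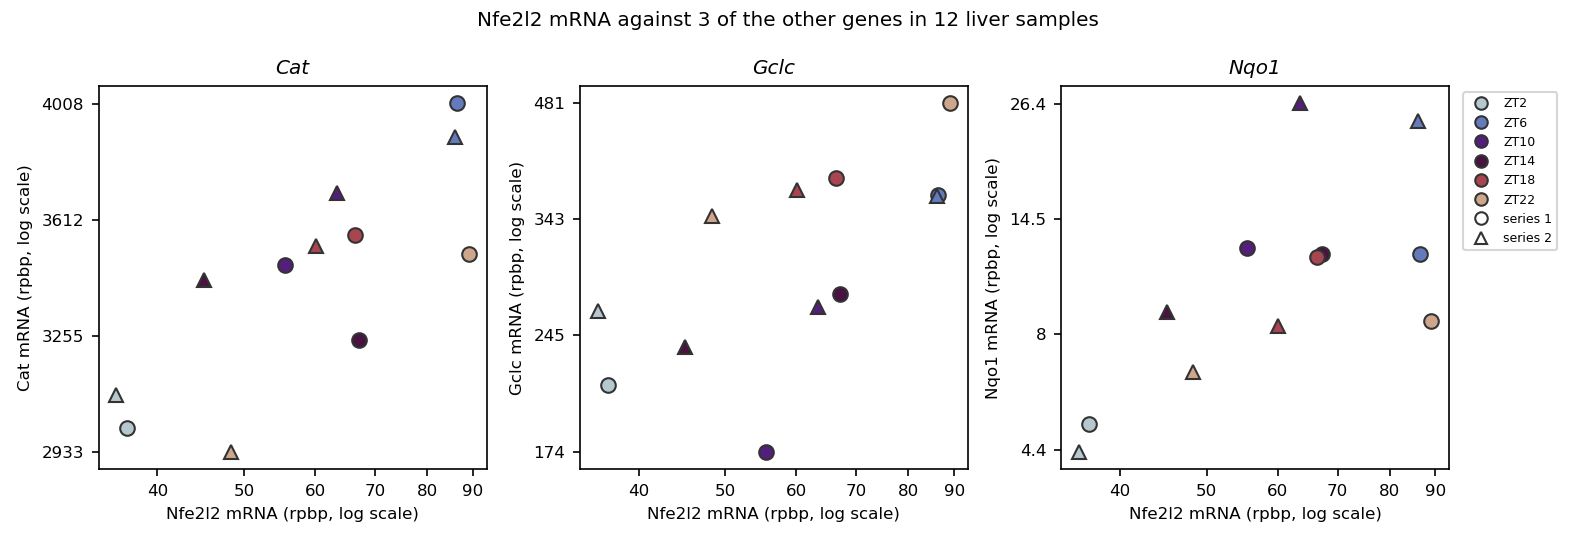
*Nfe2l2* mRNA (x axis, rpbp, log scale) against *Cat*, *Gclc* and *Nqo1* mRNA (y axes, rpbp, log scale) in the 12 samples, coloured by time point, with circles for series 1 and triangles for series 2. The ZT2 samples are at the lower left in all 3 panels, and *Cat* has the highest r, 0.789.

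The 3 expressed genes whose 12 values were most like each member's were found by Pearson r over the 12 samples, as a description without a test. *Nfe2l2* was most like *Atp7b* (r = 0.943), a copper transporter of hepatocytes, then AK015611 (0.927) and *Dsc2* (0.926). *Nqo1* was most like *Suclg1* (r = 0.968), *Fth1* (0.954), the ferritin heavy chain, and *Gbe1* (0.950). Genes close to *Sod2* included *Papss2* (r = 0.961) and *Sfxn1* (0.952). *Cat* was nearest to D430015B01Rik (0.944), *Cyb5r3* (0.938) and *Sdha* (0.935), a subunit of succinate dehydrogenase. *Gclc* was nearest to *Zfand5* (0.948), *Plxna2* (0.937) and *Col5a3* (0.922), and *Srxn1* to *Lsm8* (0.923), *Polr3k* (0.919) and *Rab2* (0.891). *Gclm* (*Tmem140*, 0.900, *Pxn*, 0.894, and 5033414D02Rik, 0.876), *Txnrd1* (*Fbxo11*, 0.890, *Pbx2*, 0.887, and *Cog3*, 0.880), *Keap1* (mKIAA1971, 0.866, *Acpl2*, 0.819, and *Ankrd25*, 0.816) and *Hmox1* (AA536749, 0.843, *Angptl6*, 0.832, and BC050254, 0.829) had less close neighbours. No member was among the 3 nearest of another.

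Of 76 further genes of the pathway, in 6 lists, 72 were in the table and 64 were expressed. Among these 64, 16 (25.0%) were rhythmic, 6 (9.38%) strongly, and 4 (6.25%) with the adjusted permutation p, beside 19.0%, 7.89% and 5.02% of all expressed genes. The limma F-test called 17 (26.6%, against 17.6% of all), a 12 hr component was called in 5 (7.81%, against 7.58% of all), and at ZT2 17 were called lower and 7 higher, where 9.79% and 9.62% of all expressed genes were. The median F24 was 0.390 against 0.310 over all expressed genes. Of the 16 rhythmic genes, 11 (68.8%) had a phase between 6 and 14 hr and 4 (25.0%) between 22 and 4 hr, and of all 1942 rhythmic genes 37.9% and 33.5% did. The windows differ in width and no phase window was among the planned tests, so these shares are a description without a test. The phases of *Nqo1* and *Sod2* lay in the first of these windows and that of *Srxn1* just before it. The adjusted permutation p passed for *Bach1*, *Sqstm1*, *Blvrb* and *Cbr1*, and was between 0.0711 and 0.184 for the other 12 rhythmic genes.

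Among 11 expressed partners and regulators of NRF2, 4 were rhythmic, 2 were called by the F-test and 1 had a 12 hr component. The shares over all expressed genes were 19.0%, 17.6% and 7.58%. *Bach1*, the repressor that competes with NRF2 for its sites, was strongly rhythmic, with 34.22 ± 0.537 rpbp at ZT10 and 18.84 ± 0.170 rpbp at ZT22 (F24 = 0.870, phase 9.41 hr, permutation p = 0.00035, adjusted p = 0.0184). *Sqstm1*, whose protein p62 binds KEAP1, had a phase of 0.803 hr, with 468 ± 13.6 rpbp at ZT2 and 326.88 ± 32.6 rpbp at ZT10 (permutation p = 0.00121, adjusted p = 0.0328). *Dpp3*, another KEAP1-binding protein, had a phase of 0.351 hr and was called higher at ZT2. *Mafg*, a small MAF partner of NRF2, had a phase of 13.1 hr and was called lower at ZT2 (log2 difference -0.57, SE 0.115, adjusted p = 0.0116, limma), as *Nfe2l2* was. The repressor *Bach1* was called lower at ZT2 too (log2 difference -0.41, SE 0.0939, adjusted p = 0.0196, limma).

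Of 10 expressed genes of glutathione use, 3 were rhythmic and 2 were called by the F-test, where 19.0% and 17.6% of all expressed genes were. Glutathione reductase, *Gsr*, was higher at ZT2 (83.76 ± 3.90 rpbp) than at ZT14 (45.12 ± 1.81 rpbp), with a phase of 3.41 hr, and glutaredoxin, *Glrx*, ran the other way, from 66.7 ± 0.481 rpbp at ZT2 to 117 ± 2.04 rpbp at ZT14. Both were strongly rhythmic (permutation p = 0.0126 and 0.00932, adjusted p = 0.0963 and 0.0856). *Chac1*, a glutathione-degrading enzyme, was low, at 2.70 to 12.9 rpbp by time-point means. Of 16 thioredoxin and peroxiredoxin genes, 2 were rhythmic (19.0% of all expressed genes were), *Prdx6* and *Msrb2*, beside *Srxn1* among the 10. The ZT10 mean of *Prdx6* was 820.28 ± 20.03 rpbp, against 485.54 ± 22.1 rpbp for ZT2 (F24 = 0.622, permutation p = 0.0126, adjusted p = 0.0963). *Txnip*, the inhibitor of thioredoxin, was not rhythmic but was called by the F-test (adjusted p = 0.0046, limma), with 53.74 ± 3.42 rpbp at ZT2 and 124.64 ± 20.4 rpbp at ZT6.

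In superoxide, iron and heme handling, 3 of 9 genes were rhythmic (*Blvrb*, *Ftl1* and *Sod3*) and 2 were called by the F-test (*Blvrb* and *Hmox2*). Over all expressed genes these shares were 19.0% and 17.6%. Biliverdin reductase B, *Blvrb*, averaged 206.3 ± 28.7 rpbp at ZT10, against 136.48 ± 4.30 rpbp for ZT2 (F24 = 0.746, permutation p = 0.00254, adjusted p = 0.0472). The constitutive *Hmox2* averaged 99.38 ± 0.990 rpbp at ZT2, against 66.24 ± 1.53 rpbp for ZT6 (F-test adjusted p = 0.0191, limma), while the ZT2 and ZT6 samples of *Hmox1* overlapped. None of 7 genes of NADPH supply was rhythmic, and the F-test called 2, *H6pd*, highest at ZT2, and *Idh1*, lowest at ZT2. Among 11 other NRF2 target enzymes 4 were rhythmic and 7 were called by the F-test, beside 19.0% and 17.6% of all expressed genes. At ZT2 7 of the 11 were called lower and 2 higher, where 9.79% and 9.62% of all expressed genes were. *Cbr1*, a carbonyl reductase, averaged 175 ± 2.26 rpbp at ZT14, against 81.26 ± 0.651 rpbp for ZT2 (F24 = 0.819, permutation p = 0.00017, adjusted p = 0.0141). The glutathione transferases *Gsta4* and *Gstm1* were lower at ZT2 too (log2 differences -1.24 and -0.55, adjusted p = 0.00378 and 0.0123, limma), as *Nqo1* was. The transferases did not move as 1 group: *Gstp1*, named here after its values were seen, was called higher at ZT2 (log2 difference 1.82, SE 0.225, adjusted p = 0.00148, limma), with a mean of 1372 rpbp over the 12 samples. *Osgin1*, an oxidative stress response gene, was instead 8.12-fold higher at ZT2 (745.22 ± 18.7 rpbp) than at ZT10 (91.78 ± 37.0 rpbp).

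**Figure D5:**
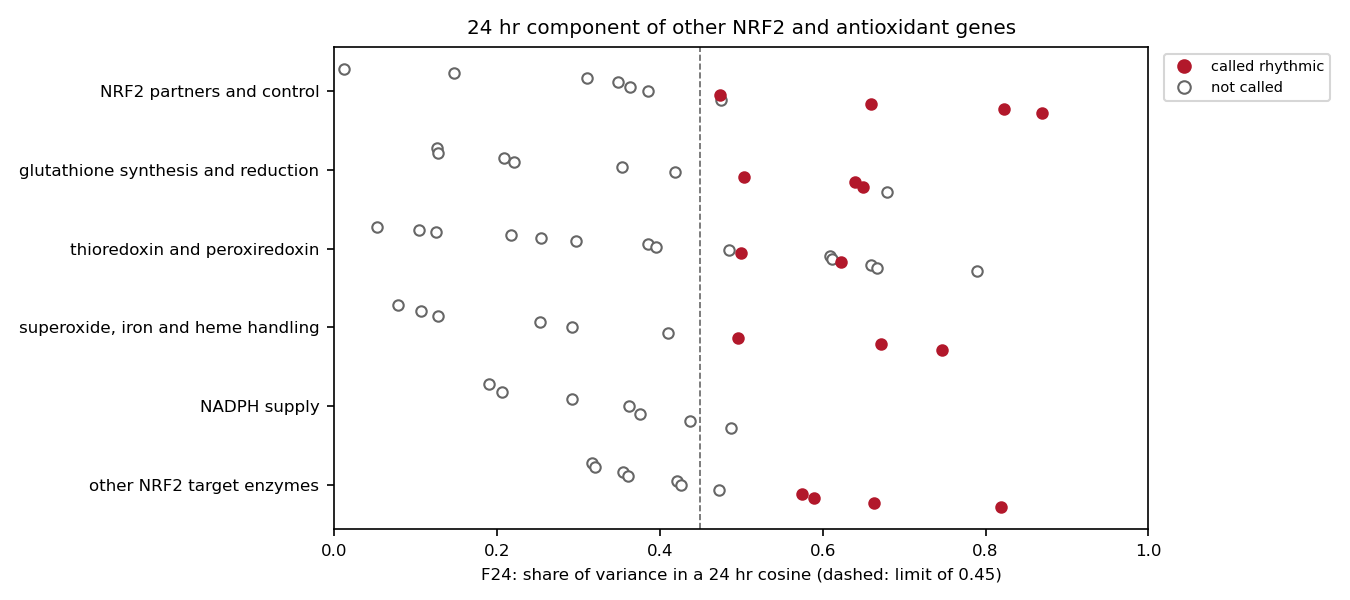
F24 (x axis, share of variance without unit) of the 64 expressed genes in the 6 pathway lists (y axis), with red for genes called rhythmic and open circles for the others, and the limit of 0.45 dashed. The highest value, 0.870, is that of *Bach1*, and no gene of NADPH supply is called.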

How the data were processed

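Polyadenylated RNA from mouse liver (4 ug of total RNA per library, TruSeq) was sequenced by the authors. Their processing notes name CASAVA 1.8, TopHat and the mm9 genome. The deposited signal is the authors' mean coverage over the flattened exons of each gene, counted without strand from uniquely mapped reads and scaled to 10000000 sequences. It was multiplied by 4 here. The table has no counts, so counting errors and the depth behind a value are unknown, and the precision is that of n = 2. Summed signal was 1487470 to 1546120 rpbp per sample, with 8762 to 9108 genes above the minimum, and no 2 columns were identical. Columns headed ZT20 were read as ZT22, the time in the labels. Columns with the authors' own F24, phase and p were not used.

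The 10 genes and all lists were chosen with earlier results of these data known. A gene was expressed if any sample exceeded 8 rpbp. F24 and F12 were computed over the 12 values with 100000 random orders, and a gene was rhythmic at p below 0.05, F24 above 0.45 and highest over lowest value above 1.5. Time points were compared with limma 3.58.1 (R 4.3.3) on log2(rpbp + 1) over all 10198 expressed genes with Benjamini-Hochberg adjustment, each against the mean of the other 5 in 1 fit. Correlations used two-sided permutation tests, exact with 720 orders within a series, where the smallest p for F24 is 0.0167. Named pathway genes were those called rhythmic or by the F-test, at most 4 per list with the largest F24. Alternatives covered the minimum, scaling, pseudocount, variance trend, replicate number as a block, and each sample left out. The scripts were tested on simulated data. Gene positions are from GENCODE vM1 (mm9), promoters from RefSeq (GRCm38.p6). Python 3.11.15, numpy 2.4.6, pandas 2.3.3 and scipy 1.17.1 were used. One gene most like a member is not reported here.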

Additional observations from a re-analysis of the deposited data

How the results depend on the processing

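No called value of the 10 genes changed direction among the alternatives run. Of the uncalled relations with *Nfe2l2*, 4 changed sign: *Keap1* (r from -0.167 to 0.246), *Hmox1* (-0.141 to 0.483), *Srxn1* (-0.177 to 0.610) and *Txnrd1* (-0.665 to 0.110). The number of rhythmic genes was 3, and 1 (*Srxn1*) with scaling to the summed signal. It was 0 to 3 when samples or series were left out, with 0 without series 2, 1 without series 1 (*Sod2*), and 1 without series 2 at ZT10 or at ZT22 (*Srxn1*). The number with a 12 hr component was 0, and 0 to 2 with samples left out. The number called by limma's F-test was 1 (*Gclc*), and 2 with a minimum of 16 rpbp or with median-of-ratios size factors, 0 with no minimum or a pseudocount of 0.1, 3 with a variance trend (*Nqo1*, *Gclc* and *Srxn1*), 0 without both ZT2 samples, and 0 to 2 with a sample left out. The 2 calls at ZT2 became 0 with no minimum and 0 without both ZT2 samples, by construction in the last, and were 0 to 3 with 1 sample left out, 0 without either ZT2 sample, when the remaining one is assumed to vary like the other groups. The relations with *Nfe2l2* past the threshold were 1 (*Cat*), 2 without the log, 0 without the ZT2 samples, and 0 to 2 with samples or a series left out, where each series alone, each ZT2 and each ZT6 sample left 0. Without ZT2 the rhythmic genes were again 3, but *Gclc*, *Srxn1* and *Sod2*. The alternatives without both ZT2 samples and with a variance trend were chosen after seeing the data. The cause of these changes was not tested.

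No common offset of a series was seen over all expressed genes. Deviations from the time-point means had a median correlation of -0.0258 between series 1 samples (range -0.153 to 0.206 over 15 pairs). An offset shared by only part of the genes was not tested. With replicate number as a block, 2 genes were rhythmic, the F-test called 0 (*Gclc* at an adjusted p of 0.0765), the calls at ZT2 stayed 2, and 3 relations passed (*Nqo1*, *Gclc* and *Cat*). With 2 samples per time point, differences smaller than the spread between samples were not detectable, which bears most on *Nqo1*, *Hmox1* and *Nfe2l2*.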
